A study of Mus musculus with 12 samples.

Results

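The genes described here are 9 core members of the Hedgehog signalling pathway, namely the ligands Shh, Ihh and Dhh, the receptor Ptch1, the signal transducer Smo, the ligand-binding inhibitor Hhip and the transcription factors Gli1, Gli2 and Gli3. The histone mark H3K27me3 is histone H3 trimethylated at lysine 27, and its sites were assigned to a gene if at least 1 bp of a site lay in the gene body or in the 20 kb on either side of it, a stretch called the window of the gene. By this rule 69 of the 101389 listed sites belonged to the 9 genes, 16 of them to the ligands and 53 to the other 6 genes. The rule used positions and gene annotation and no measured value.

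The sites came from ChIP-seq, in which chromatin bound by an antibody is sequenced, of mouse embryo fibroblasts that had been immortalized (iMEF). The mark was measured in 8 libraries, with 2 for untreated cells and 2 for each time of dTAG treatment (16 h, 24 h and 48 h), beside 4 input libraries of chromatin without antibody, 2 untreated and 2 treated for 48 h. The cells of every group, untreated ones included, came from Ash2l fl/fl Cre-ER mice, had lost exon 4 of the endogenous Ash2l and lived on a lentiviral human ASH2L fused to an FKBP domain. The compound dTAG ties this domain to the ubiquitin ligase component Cereblon, so that ASH2L, a subunit of the COMPASS complexes that methylate lysine 4 of histone H3, is degraded. The untreated libraries are titled WT, but they are not wild-type for Ash2l. The study reports its ChIP-seq of histone marks for a single selected clone of these cells, which limits them as a model of fibroblasts in general. The deposited list joins the sites of all samples and gives a position for each, with no value for any library, so the presence of a site does not tell at which time it was found. No difference between treated and untreated cells could be tested and no replicate error can be given. The study planned a minimum number of raw reads for each sample and brought libraries to the lowest coverage, but the list does not hold the reads obtained or those behind a site. All values below describe positions in this 1 list, and genes were not treated as replicates.

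Hedgehog proteins are secreted, lipid-modified signals that pattern the embryo. Without ligand, PTCH1 keeps SMO inactive. Binding of a ligand to PTCH1 frees SMO, and the GLI proteins then turn on their targets, among which are Gli1, Ptch1 and Hhip themselves. SHH is known for the neural tube and limb, IHH for growing cartilage and gut, and DHH for testis and peripheral nerve, while mesenchymal cells such as fibroblasts are typical receivers of the signal. H3K27me3 is placed by Polycomb repressive complex 2 and is known from silent developmental genes, often those with many CpG dinucleotides at their promoters.

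Promoter sequences are shown for 3 genes whose RefSeq start lay under a site (Ihh, Dhh and Hhip), for Ptch1, whose RefSeq start did not, and for Gli3, which had no site in its window. They are given because the H3K27me3 sites of the 9 genes lay at some of these starts and not at others that are as rich in CpG. Each sequence runs 5′ to 3′ on the strand of the gene, from 250 bases before to 50 bases after the start, with every CpG in capitals (RefSeq, GRCm38.p6). On this build they lie at chr1:74951623-74951922 (Ihh, minus strand), chr15:98898491-98898790 (Dhh, minus), chr8:80057959-80058258 (Hhip, minus), chr13:63565686-63565985 (Ptch1, minus) and chr13:15463473-15463772 (Gli3, plus).
Ihh: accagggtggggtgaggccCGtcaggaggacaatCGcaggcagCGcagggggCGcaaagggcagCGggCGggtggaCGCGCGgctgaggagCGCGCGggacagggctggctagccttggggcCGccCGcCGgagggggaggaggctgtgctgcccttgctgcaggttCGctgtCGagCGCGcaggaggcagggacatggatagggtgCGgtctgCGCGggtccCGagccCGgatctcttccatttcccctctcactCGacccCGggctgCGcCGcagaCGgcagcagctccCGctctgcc
Dhh: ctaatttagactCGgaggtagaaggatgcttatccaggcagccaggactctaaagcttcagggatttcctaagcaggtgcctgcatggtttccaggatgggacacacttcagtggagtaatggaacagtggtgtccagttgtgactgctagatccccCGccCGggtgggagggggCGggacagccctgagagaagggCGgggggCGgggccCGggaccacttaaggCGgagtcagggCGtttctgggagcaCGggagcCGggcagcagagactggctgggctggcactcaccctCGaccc
Hhip: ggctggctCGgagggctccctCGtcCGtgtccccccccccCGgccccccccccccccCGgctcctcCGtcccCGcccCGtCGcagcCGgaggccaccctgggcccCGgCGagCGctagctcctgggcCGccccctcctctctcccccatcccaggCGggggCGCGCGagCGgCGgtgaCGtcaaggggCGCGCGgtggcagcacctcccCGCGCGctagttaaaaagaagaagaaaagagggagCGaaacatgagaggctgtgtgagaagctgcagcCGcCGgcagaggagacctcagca
Ptch1: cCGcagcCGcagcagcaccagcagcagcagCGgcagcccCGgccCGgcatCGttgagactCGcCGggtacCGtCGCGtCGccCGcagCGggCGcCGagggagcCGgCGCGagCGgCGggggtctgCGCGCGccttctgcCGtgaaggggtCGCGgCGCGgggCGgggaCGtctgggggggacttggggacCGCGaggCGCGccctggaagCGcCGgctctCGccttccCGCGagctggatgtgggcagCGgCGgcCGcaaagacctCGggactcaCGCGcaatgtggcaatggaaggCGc
Gli3: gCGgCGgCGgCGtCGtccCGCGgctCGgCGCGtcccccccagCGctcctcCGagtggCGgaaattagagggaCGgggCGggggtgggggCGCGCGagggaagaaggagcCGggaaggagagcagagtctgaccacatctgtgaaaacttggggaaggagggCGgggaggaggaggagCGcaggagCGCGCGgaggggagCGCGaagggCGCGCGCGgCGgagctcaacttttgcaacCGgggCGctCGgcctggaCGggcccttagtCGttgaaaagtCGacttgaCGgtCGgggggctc
RefSeq promoters were found for 7 of the 9 genes, and those of Shh and Gli1 were not among them. The Ihh and Hhip promoters held 30 CpG each and that of Dhh held 12, and all 300 bases of each lay under a site. Of the 7 promoters 3 were thus touched by a site, beside 18.5% of all RefSeq promoters, whose median CpG number was 8 when touched by a site and 7 when not. The RefSeq promoter of Ptch1 held 47 CpG and that of Gli3 held 39, with 0 bases under a site in either. Among all 32619 RefSeq promoters of this length, only 1.45% held as many CpG as that of Ptch1 and 4.48% as many as that of Gli3, against 11.8% for Ihh and for Hhip and 39.9% for Dhh. The median promoter held 7 CpG. The promoters of Gli2, with 28 CpG, and Smo, with 17, also had 0 bases under a site. Within these 7 genes the number of CpG thus did not order the promoters by whether they lay under a site. The GLI consensus TGGGTGGTC, searched on both strands with its reverse complement GACCACCCA, was in none of these 7 promoters and in 0.254% of all promoters.

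Of the 9 genes, 8 had a site in their window, where 61.5% of the 21755 protein-coding genes had one. A site touched the gene body of 6 of the 9, against 30.6% of all protein-coding genes. Within 1 kb of an annotated transcription start site (TSS), 7 of the 9 had a site, against 26.9%, and covered a TSS of 6, against 21.4%. At least 50% of the gene body was covered in 4 of the 9, against 10.1%. The 4 genes were Shh, Ihh, Dhh and Gli1. Gli3 was the single gene without any site, and Smo and Gli2 had sites in their flanks and none in their bodies.

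**Figure D1:**
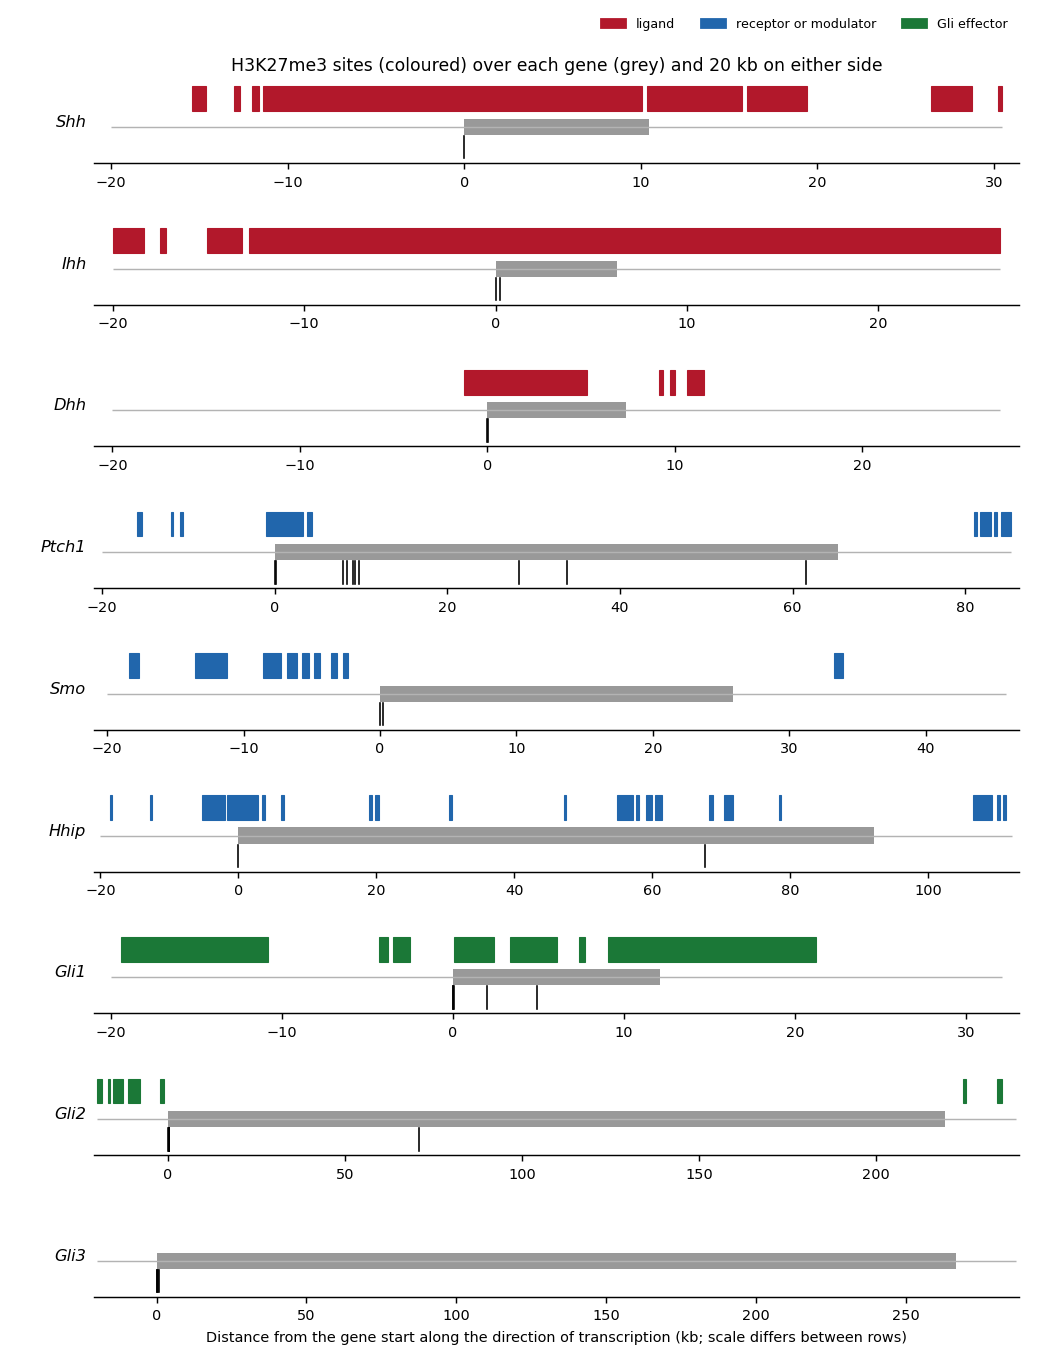
H3K27me3 sites (coloured bars, upper row of each panel) over the body of each gene (grey bar) and 20 kb on either side, with annotated TSSs as black ticks; the x axis gives the distance in kb from the gene start along the direction of transcription, its scale differs between panels, and narrow sites are drawn with a minimum line width. The bodies of Shh and Ihh lie almost wholly under 1 or 2 wide sites, the sites of Smo and Gli2 stop short of the body, and Gli3 has none.

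The 3 ligand genes were covered most. Their gene bodies were covered to 97.1% (Shh), 100% (Ihh) and 71.9% (Dhh), and the entire coding sequence of each lay under sites. The 6 other bodies were covered to between 0% and 69.5%, so that the values of ligands and other genes did not overlap. This separation rested on the spaces inside Gli1: when spaces of under 1000 bp between sites were closed, Gli1 was covered to 77.6% and stood above Dhh. The medians were 97.1% for the ligands and 2.91% for the other 6, where the median protein-coding gene had 0% of its body covered. Over the whole windows the values did overlap, with 68.0%, 92.9% and 16.8% for Shh, Ihh and Dhh, and up to 53.1% (Gli1) among the others. The medians of the windows were 68.0% for the ligands, 11.4% for Ptch1, Smo and Hhip and 4.43% for the Gli genes, beside 1.88% for all protein-coding genes. No test was run on these differences.

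Gene length moved with this order. The 4 genes with at least 50% of the body covered were the 4 genes of under 20 kb, and of all genes of that length 25.5% had a site in the body and 13.2% had at least 50% of it covered. Of Ptch1, Smo and Hhip, which are between 20 and 100 kb long, 2 had a site in the body, against 32.0% of the genes of that length. Neither Gli2 nor Gli3, both over 100 kb, had one, where 50.3% of such long genes did. The flanks, which are 20 kb for every gene, showed no separation of the ligands. Upstream, Shh (64.5%) and Ihh (83.5%) were the most covered of the 9, but Dhh (6.16%) was below all others except Gli3. Downstream, Ihh (100%) and Shh (56.3%) again led and Dhh (7.03%) was below Gli2 (10.7%), Ptch1 (15.1%), Hhip (19.1%) and Gli1 (45.7%). The part of gene length in the covered shares was not tested.

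**Figure D2:**
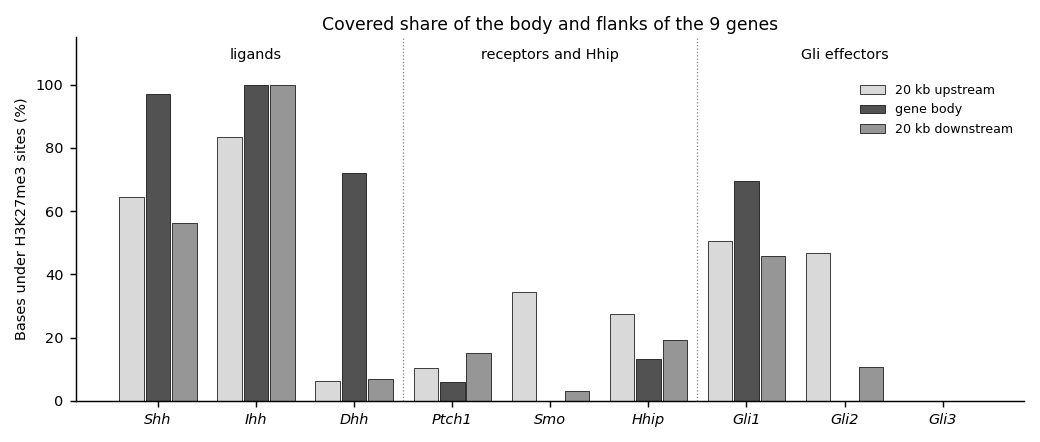
Share of bases under H3K27me3 sites (y axis, percent) in the 20 kb upstream, the gene body and the 20 kb downstream of each gene (x axis), grouped by role; bars are single values from the pooled list, without error. The gene bodies of the 3 ligands stand at 71.9% to 100%, that of Gli1 at 69.5% and the others at no more than 13.2%, while the flanks of Dhh stand at 6.16% and 7.03%.

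Shh (ENSMUSG00000002633.4), which encodes the ligand of the floor plate and the limb bud, lies at chr5:28456815-28467256 on the minus strand (GRCm38). It had 8 sites in its window, of 343 to 21443 bp. The widest, at chr5:28457205-28478647, began 11391 bp before the TSS and ended 10051 bp after it, and 0.516% of all listed sites were at least as wide. A site of 5379 bp reached into the 3′ end of the gene from the downstream side, with a bare stretch between it and the widest site, and all 3 exons of Shh were touched by a site. Only 3.13% of protein-coding genes had an equal or higher share of their body covered.

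Ihh (ENSMUSG00000006538.12), the ligand of growing cartilage, lies at chr1:74945315-74951672 on the minus strand. Its body lay within 1 site of 99506 bp, at chr1:74865068-74964573, which was the 5th widest of the whole list. The site reached from 12901 bp before the TSS to 86604 bp after it and also took in Cfap65, Cryba2 and Fev whole. The other 3 sites of its window, of 312, 1853 and 3987 bp, lay upstream, and the first and the last of these were in introns of Nhej1, a DNA repair gene. Only 0.510% of protein-coding genes had as high a share of their window covered.

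Dhh (ENSMUSG00000023000.5), the ligand of the testis and of peripheral nerve, lies at chr15:98891152-98898540 on the minus strand. Here the coverage was local. A site of 6546 bp, at chr15:98893227-98899772, ran from 1232 bp before the TSS to 5313 bp after it, touched all 3 exons and ended before the 3′ end of the gene. It reached into Rhebl1, whose 5′ end overlaps the 3′ part of Dhh on the same strand. The other 3 sites, of 218, 283 and 905 bp, were downstream in introns of Rhebl1. The window was covered to 16.8%, and 22.1% of protein-coding genes had at least that share.

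Ptch1 (ENSMUSG00000021466.12), the receptor, lies at chr13:63508328-63573598 on the minus strand. Sites covered 2 of its 10 annotated TSSs, both at the upstream end of the gene. The site there, at chr13:63570385-63574585, was 4201 bp wide, began 987 bp before the gene start and ended 3213 bp into the gene. It covered the starts of the transcripts Ptch1-204 and Ptch1-205, the latter protein-coding, and 1 of the 27 exons. The other annotated protein-coding starts, of Ptch1-201, Ptch1-202, Ptch1-203 and Ptch1-207, were 3517 to 4926 bp from the nearest site, which was 586 bp wide. The RefSeq promoter with 47 CpG shown above belongs to the start of Ptch1-201, which no site covered. Of the coding bases, 207 of 4512 were covered. The 4 downstream sites of Ptch1, of 351 to 5085 bp, were in introns of Fancc, a gene of the Fanconi anaemia DNA repair pathway.

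Smo (ENSMUSG00000001761.7), the membrane protein that passes the signal on, lies at chr6:29735503-29761365 on the plus strand. No site touched its body. Upstream there were 8 sites of 379 to 2328 bp, which covered 34.5% of the 20 kb before the gene, and the nearest ended 2359 bp before the gene start. Of all protein-coding genes, the median distance from a TSS to the nearest site was 13192 bp. The single downstream site, of 630 bp, was at an exon of Ahcyl2, 285 bp from a TSS of that gene, and had a CpG observed/expected ratio (the CpG count over that given by the C and G content) of 0.809, the highest of the 69 sites.

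Hhip (ENSMUSG00000064325.4), whose product binds the ligands and withholds them from PTCH1, lies at chr8:79965851-80058006 on the minus strand. It had the most sites, 20 in its window and 14 touching its body, but they were short, with a median width of 509 bp. The site at the TSS, at chr8:80055157-80059612, was the widest with 4456 bp and reached from 1606 bp before the start to 2849 bp after it. The others that touched the body were spread over the gene as far as 78683 bp from the start. The 14 sites together, that at the TSS included, covered 13.2% of the body but 52.9% of the coding sequence (1111 of 2100 bp). They touched 7 of the 13 exons.

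Gli1 (ENSMUSG00000025407.7), a target of the pathway that amplifies its output, lies at chr10:127329882-127341974 on the minus strand. It was the most covered of the 6 genes that are no ligands, with 69.5% of the body and 91.9% of the coding sequence under 4 sites and 11 of 13 exons touched. The site nearest the start, of 2336 bp at chr10:127339597-127341932, ended 42 bp inside the gene. It therefore covered the TSSs of Gli1-202 and Gli1-203 but not the outermost start, shared by Gli1-201 and Gli1-204. The widest site, of 12142 bp, covered the 3′ end of Gli1 together with all of Arhgap9, which lies on the other strand and overlaps it at the 3′ end. Upstream, a site of 8596 bp lay over Inhbe and Inhbc. Since H3K27me3 carries no strand, coverage of the overlapping 3′ ends belongs to both genes.

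Gli2 (ENSMUSG00000048402.14), the main activator, lies at chr1:118834132-119053619 on the minus strand. Its body of 219488 bp held no site. The 20 kb before it were covered to 46.7% by 5 sites of 779 to 3329 bp, and the nearest, of 1168 bp, ended 993 bp before the gene start, just inside the limit of 1 kb. The start shared by its other protein-coding transcripts was 1273 bp away. Like Smo, it had sites on the upstream side that stopped before the gene.

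Gli3 (ENSMUSG00000021318.15), whose product acts mainly as the repressor of the family, lies at chr13:15463235-15730026 on the plus strand. Neither its body of 266792 bp nor the flanks had a site, and none lay within 500 kb of it. The nearest sites were 940 kb before it and 2.09 Mb after it. The stretch without a site was 3.29 Mb long, from chr13:14523189 to chr13:17815086, free of unknown bases and the 37th longest of the 101285 spaces between neighbouring sites, whose median was 1069 bp. It also held the whole of Mrpl32, Psma2, AW209491, Inhba, Sugct, Mplkip and Cdk13, and 500 protein-coding genes lay wholly in a space at least as long. None of the genes of this stretch was annotated on a patch or alternate sequence of the build.

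**Figure D3:**
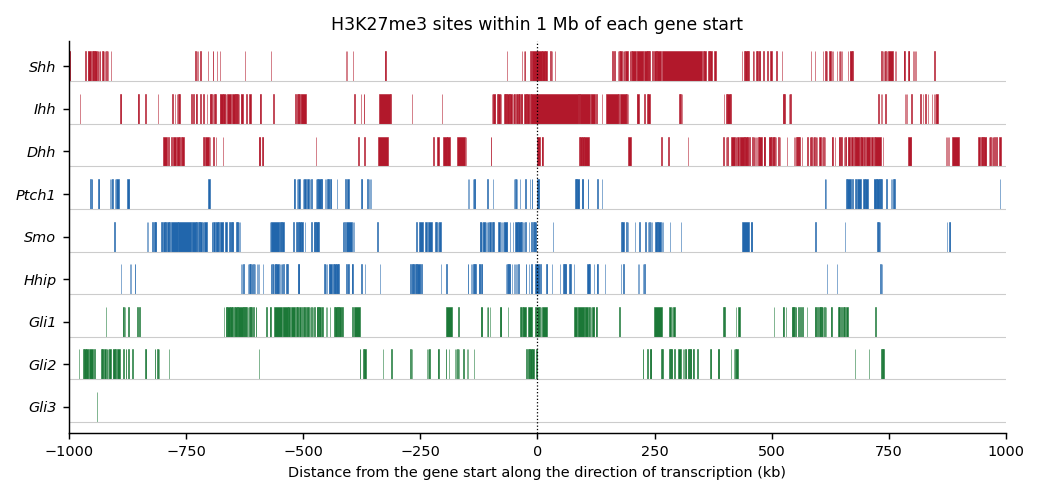
Positions of H3K27me3 sites (vertical marks, with a minimum line width) within 1 Mb of the start of each gene; the x axis gives the distance in kb along the direction of transcription, and colours mark ligands (red), Ptch1, Smo and Hhip (blue) and Gli genes (green). Sites are present around 8 of the genes on both sides, and the row of Gli3 is empty but for the site 940 kb before it.

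Over 500 kb on either side, a span chosen after the sites were seen, the surroundings of the other 8 genes held 57 to 87 sites. The covered share of these spans was 24.0% for Shh, 29.1% for Ihh and 15.6% for Dhh. It was 6.29% for Ptch1, 17.1% for Smo, 9.87% for Hhip, 19.1% for Gli1, 8.38% for Gli2 and 0% for Gli3, and 6.75% for the genome outside assembly gaps. By covered share, Ptch1 thus stood in surroundings close to the genome value. Shh and Ihh stood in the most covered ones of the 9, with Dhh below Smo and Gli1. By number of sites, Ptch1 (59) and the others of the 8 genes stood above the genome, which held 39.6 sites per Mb.

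The 69 sites had a median width of 742 bp (218 to 99506 bp), beside 676 bp for the whole list. Of the 69, 24 touched a gene body, 28 were only upstream and 17 only downstream, and 7 were at least 5 kb wide, of which 4 belonged to the ligands. In the whole list 7.08% of sites were at least 5 kb wide. The centres of 5 sites were in exons of protein-coding genes, of 29 in introns and of 35 outside. The places of these centres were not set against those of the whole list. By role, the median widths were 1379 bp for the ligands, 533 bp for Ptch1, Smo and Hhip and 1205 bp for the Gli genes.

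The sites that covered a TSS of one of the genes had a higher median width, CpG observed/expected ratio and GC content than the rest. There were 7 of them, 1 each at Shh, Ihh, Dhh, Ptch1 and Hhip and 2 at Gli1. Their median width was 4456 bp (2336 to 99506 bp), against 570 bp (218 to 12142 bp) for the other 62. Their median CpG observed/expected ratio was 0.411 (0.232 to 0.497), against 0.169 (0 to 0.809) for the others and 0.182 in the whole list. Their median GC content was 52.0% against 47.7%. A TSS is more readily covered by a wide site, and by this choice each of the 7 holds sequence around a TSS. The ranges of both groups overlapped. At 5 of the 6 genes with a covered TSS, Gli1 being the exception, the site at the gene start was also the widest that touched the gene body.

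**Figure D4:**
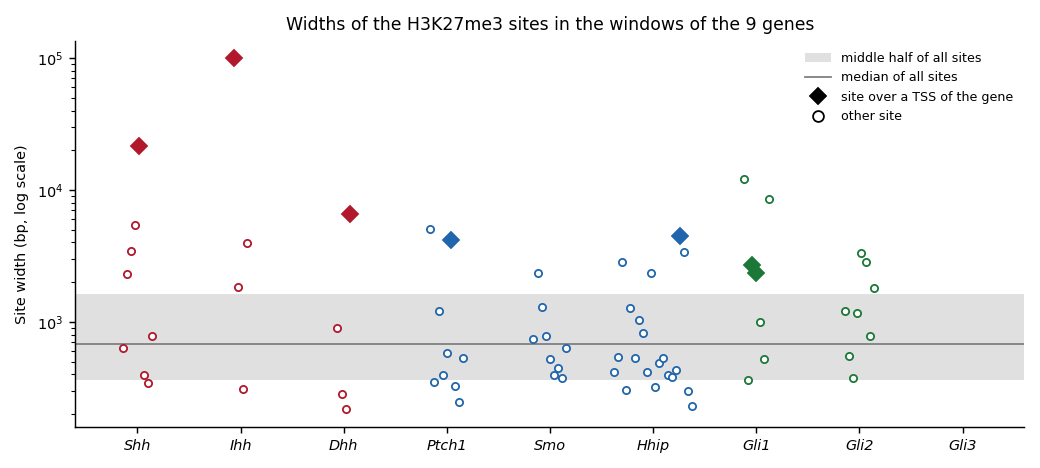
Width of each of the 69 H3K27me3 sites (y axis, bp on a log scale) by gene (x axis); filled diamonds are sites over a TSS of the gene, open circles are other sites, the grey line marks the median of all listed sites (676 bp) and the grey band their quartiles (363 to 1640 bp). All 7 diamonds lie above the band, from 2336 bp at Gli1 to 99506 bp at Ihh, and most circles lie within or near it.

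The wider pathway was described with a list of 40 further genes. At a distance of up to 1 kb from a TSS, 19 of them had a site, and at least 50% of the body was covered in 11, against the 26.9% and 10.1% of all protein-coding genes given above. The genes were unlike by role. Of 14 genes of signal transduction, among them Sufu, Kif7, Gpr161 and Spop, none had a site as near to a TSS, and Evc was the only one with a site in its body (11.9% covered). Sufu, the cytoplasmic inhibitor of the GLI proteins, was 51484 bp from the nearest site, and Kif7, a ciliary kinesin, 1175 bp.

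Of 14 known targets of the pathway in some tissues, 12 had a site as near to a TSS and 9 were covered over at least 50% of the body. The covered shares differed widely between them. The transcription factors Olig2, Foxa2, Nkx6-1, Hand2 and Foxf1 were covered to 100%, Nkx2-2 to 97.0% and Mycn to 93.7%, and the site over Foxf1 was 63228 bp wide. Jag2, a Notch ligand, was covered to 87.2% and Bmp4, a secreted signal, to 63.0%. Of the cyclin genes, Ccnd1 was covered to 7.34% and Ccnd2 to 0%, with a site 883 bp from the TSS of Ccnd2, and the window of Bcl2 held no site. Grem1, a BMP antagonist, was covered to 10.4%, and the window of Foxl1 held no site either. Many of these genes are regulators of development with other inputs, and their coverage was not set against that of other such regulators.

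Among the 6 genes of ligand processing and release, Scube1 (75.9%), Disp2 (63.8%), Scube2 (20.2%) and Scube3 (19.4%) had a site near a TSS, whereas Hhat, which attaches palmitate to the ligands, and Disp1, which releases them, had 0% of their bodies covered. Among receptors and co-receptors, Lrp2, an endocytic receptor, was covered to 5.82% and had a site over a TSS. Boc, Cdon and Gas1, the co-receptors that help PTCH1 bind ligand, had none within 1 kb of a TSS and 0% of the body covered. Cdon came nearest, at 1443 bp.

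**Figure D5:**
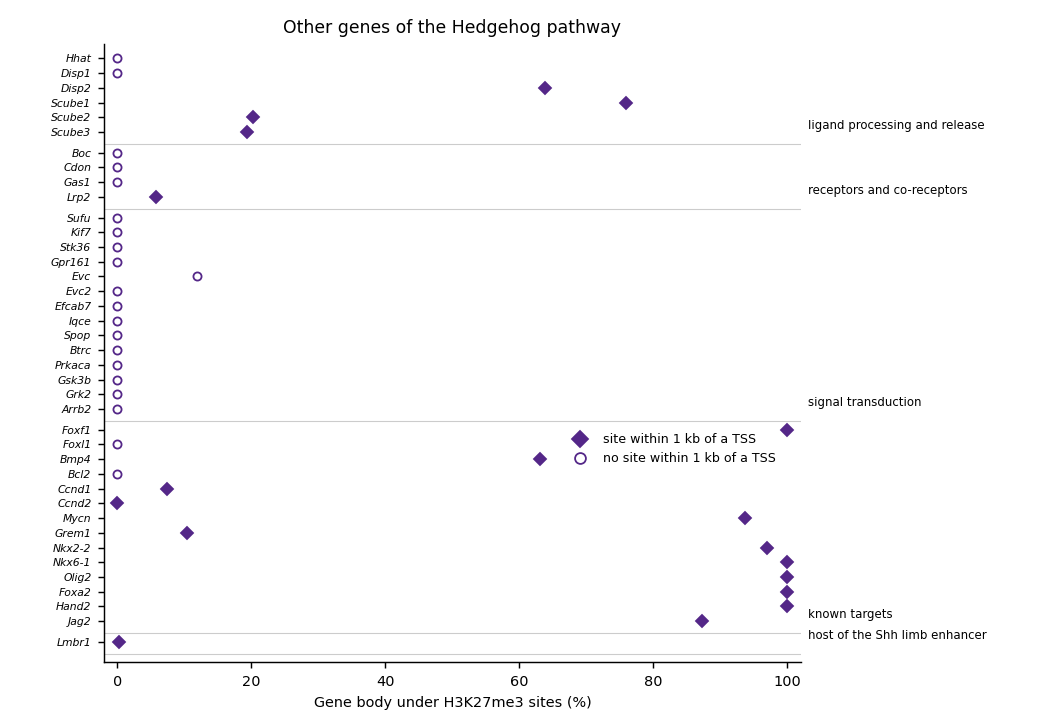
Share of the gene body under H3K27me3 sites (x axis, percent) for 39 other genes of the pathway, in blocks by role; filled diamonds are genes with a TSS at most 1 kb from a site and open circles are all others. All 14 genes of signal transduction are open circles, 13 of them at 0%, while 12 of the 14 known targets are diamonds, 9 of them at 63.0% or more.

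The labelled cell type was set beside markers. H3K27me3 is not expression, so this describes sites only. Of 10 fibroblast markers, 1 (Pdgfra) had a site at a TSS or up to 1 kb from it, and no body among the 10 was covered to more than 1.76%. Of all protein-coding genes, 26.9% had a site as near to a TSS. Such sites were listed for 1 of 4 endothelial (Kdr) and 2 of 4 epithelial markers (Epcam and Cdh1). Their median covered shares of the body were 4.65% and 6.73%. Among blood markers, those with such a site included Cd3e and Spi1, and the median covered share of the body was 63.1%. These sets are small, and no test was run on them.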

How the data were processed

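H3K27me3 ChIP-seq of iMEF cells was described from 1 deposited list of sites. Per the study's methods, reads were trimmed (Trim Galore), aligned to mm10 (GRCm38.p6) by BWA, filtered by SAMtools and merged over replicates by Picard, and the authors called broad peaks with MACS (MACS2 in the submitters' processing notes, which also name deepTools and DESeq2). Versions, cutoffs and the rule that joined the peaks of different samples are not given in the sources used here. The deposited values are the chromosome, start and end of each site, with no count, score or signal, and 0 columns of per-sample values were left unused. Planned tests that need read counts were therefore not run.

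Groups came from the sample titles and time points. Starts were read as counted from 0, since the narrowest site then measured 200 bp, and are printed counted from 1. Sites were set against GENCODE M21 (GRCm38, primary assembly), with 21755 protein-coding genes on chromosomes 1 to 19 and X, by overlaps of at least 1 bp in Python 3.11.15 with NumPy 2.4.6. A broad-peak caller sets the smallest width and the space across which stretches are joined, so site numbers depend on it. Exons are those of all transcripts merged. Overlaps were tested on simulated sites. Named genes were the 9 members, the genes of the wider list with a site within 1 kb of a TSS or a body covered to at least 10%, and genes sharing a site or window with a member; further ones are named as examples without a site. Members, lists and spans were chosen with earlier results of these data known. Alternatives varied the site width, the merging of sites, the window, the TSS definition and the summary. Some genes and sequences of these lists are not reported here.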

Additional observations from a re-analysis of the deposited data

How the results depend on the processing

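Of 58 values recomputed under other settings, 32 kept within the limits set and 26 moved. The median covered shares were allowed no deviation, so each of their recomputed values counted as moved, however small the change. For the rest, the limits were 1.5 times for counts and the binomial interval for the share of all genes. The number of genes with a site in the window (8, or 6 without extension), in the body (6, or 4 by the centre of the site) and near a TSS (7, or 8 within 3 kb and 6 at the TSS itself) stayed within those limits, as did the count of the wider list (19, with 15 to 22). The 69 sites of the 9 genes became 45 with sites of at least 500 bp, 29 with sites of at least 1000 bp, 40 when spaces of under 1000 bp between sites were closed and 28 when those of under 3000 bp were. In the same order, the median covered share of the ligand windows of 68.0% became 66.5%, 64.6%, 71.0% and 77.0%, and that of the other 6 genes, 9.95%, became 8.40%, 5.84%, 13.0% and 15.0%. With extensions of 0, 5 and 50 kb it was 97.1%, 98.5% and 32.9% for the ligands and 2.91%, 4.88% and 13.6% for the others, and with bases pooled over the genes 59.2% and 8.36%. The ligand median was above the other in each of these settings, but the gap was narrowest at 50 kb. The share of all protein-coding genes with a site near a TSS, 26.9%, was 24.9% and 22.4% with the 2 width limits, 33.5% within 3 kb, 21.4% at the TSS itself, 25.8% for protein-coding transcripts and 24.1% for the outermost TSS. Merging across 3000 bp raised the covered body of Gli1 from 69.5% to 100% and that of Hhip from 13.2% to 20.7%, so that Gli1 then stood above Dhh (71.9%) and the bodies of ligands and other genes overlapped; at 1000 bp it was 77.6%, again above Dhh.

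No paired analysis was possible because the list gives no value for any library, although the groups share replicate numbers. For the same reason no replicate was left out. The study gives a planned minimum of reads per sample, but the list does not show the reads obtained. A stretch without a site shows only that none was called there.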

Other observations

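The protein-coding genes that share a site or a window with the Hedgehog genes were covered unevenly. Around Ihh, the bodies of Fev, a transcription factor of serotonergic neurons, of Cryba2, a lens crystallin, and of Cfap65, a protein of cilia and flagella, were covered to 100% by the same site as Ihh, and Nhej1 to 28.6% by 33 sites. Around Dhh, Rhebl1 was covered to 16.2%, whereas Kmt2d, which encodes a COMPASS methyltransferase, and Lmbr1l had 0%, with their nearest TSS 15761 bp and 6732 bp from a site. Next to Gli1, Arhgap9 was covered to 100%, Inhbc to 71.2% and Inhbe to 29.0%, while Mars, which encodes a methionine tRNA synthetase, had 0%. Next to Smo, Tspan33 was covered to 43.8% and Ahcyl2 to 0.437%, and next to Ptch1, Fancc to 5.64% by 12 sites.

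Upstream of Shh, the stretch as far as Lmbr1, whose intron holds the limb enhancer of Shh, was looked at after the sites had been seen. The stretch at chr5:28467257-29229801 is 763 kb long and held 25 sites, or 32.8 per Mb, where the genome held 39.6 per Mb. Of these, 9 were within 100 kb of Shh, and the 16 beyond covered 1.66% of their part of the stretch, with none wider than 3199 bp. Lmbr1 itself, 149 kb long, had 1 site in its body, which covered 0.186% of it. The covered domain at Shh was thus local on this side.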
